A study of Mus musculus with 6 samples.

Results

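The 36 genes described here encode the coagulation and fibrinolysis factors, and they were taken by gene symbol from a table of 52323 genes. RNA was sequenced from dHeps, damaged hepatocytes taken from the livers of mice injured with CCl4 and cultured for 16 days. The mice were of the genotype AAV-TBG-Cre:Rosa-LSL-tdTomato. All 6 libraries shared the injury, the tdTomato reporter switched on by Cre under the hepatocyte promoter TBG, and serum-free Hepatocyte Maintenance Medium, and there were 2 libraries in each of 3 groups. The DMSO group received solvent only. The 3C group received CID755673 at 50 µM, a protein kinase D inhibitor, GSK429286A at 2 µM, a ROCK inhibitor, and ETC-1002 at 5 µM, an AMPK activator. The 5C group received these 3 compounds plus Salidroside at 5 µM, a plant glycoside, and Forskolin at 2 µM, which activates adenylate cyclase. The age of the animals was not given in the labels, and nothing in them says that the 2 libraries of a group came from separate animals, so the p-values measure only the spread between these libraries.

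Most plasma clotting factors are secreted by hepatocytes. The cascade activates prothrombin, thrombin then cuts fibrinogen into fibrin, and factor XIII cross-links the fibrin. Plasmin, made from plasminogen by the activators tPA and uPA, dissolves the clot, while protein C, protein S, tissue factor pathway inhibitor and several serpins restrain the cascade. Tissue factor, thrombomodulin, the thrombin receptors and the plasminogen activators are made by many cell types and act at cell surfaces.

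The 36 genes were sorted by role. There were 21 liver-made plasma factors, of which 14 take part in clotting or contact activation and 7 are regulators or protease inhibitors. The others were 2 enzymes of the vitamin K cycle, 10 surface and activator genes, and 3 further genes (F8, F13a1 and A2m). These 3 were set apart as plasma proteins with a main source other than hepatocytes. All 36 passed the filter on low counts. The libraries held 65916573 to 69245895 counts, and the 2 libraries of each group correlated across genes at r of 0.993 to 0.994 on the log2 scale of CPM, a gene's counts scaled to a common library total. Summed CPM of 8 hepatocyte markers, among them Alb and Hnf4a, was 1459 to 1695 in DMSO, 9051 to 9468 in 3C and 8689 to 12929 in 5C. Macrophage markers were also present, with 10 genes summing to 11907 to 12671 CPM in DMSO, 4089 to 4103 in 3C and 2686 to 2699 in 5C. The 9 endothelial markers summed to 328 to 338, 89.6 to 123 and 151 to 235 CPM, a sum that is mostly Lyve1 in DMSO (mean 314 CPM, 57.6 in 5C), while Cdh5 went from a mean of 1.16 CPM in DMSO to 57.8 in 5C and Pecam1 from 0.788 to 31.9, and Clec4g was at or near 0. The 9 stellate cell and fibroblast markers summed to 5636 to 6514 CPM in DMSO, 4790.4 to 4837 in 3C and 7303 to 7827 in 5C. The 6 mesothelial markers summed to 972 to 1182, 1257 to 1401 and 2295 to 2401 CPM, with 5 of 6 called higher in 5C against DMSO, and the 6 cholangiocyte markers to 180.1 to 186, 409 to 479 and 365 to 394 CPM, with 5 of 6 called higher in 3C against DMSO. The 5 platelet markers summed to at most 4.54 CPM and the T and B cell markers to at most 0.258.

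The first question was whether the cocktails changed the RNA levels of these factors against solvent. Plasma factors of the liver were higher with both cocktails, and the surface and activator genes mostly were not. A gene was called when its Benjamini-Hochberg adjusted p in edgeR's quasi-likelihood test, taken over all 19135 genes tested, was below 0.05 and its log2 fold change exceeded 1 in size. In 5C against DMSO 22 of the 36 genes were called, 20 higher and 2 lower, against a background of 11.7% of the genes tested, or 7.3% higher and 4.42% lower. In 3C against DMSO 19 were called, 18 higher and 1 lower, where the background was 9.45%, with 5.83% higher and 3.62% lower. These comparisons share the DMSO libraries. In bulk RNA a larger share of hepatocytes and more RNA per hepatocyte cannot be told apart, and the part that these shifts in cell type markers play in the values below was not tested.

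The 21 liver-made genes carried nearly all of these calls. In 5C against DMSO 18 rose and 1 fell, with a median log2 fold change of 2.67, and in 3C against DMSO 17 rose and 1 fell, with a median of 2.04, while the median over all genes tested was 0.00 and 0.01. Their summed level was 811 and 764 CPM in the DMSO libraries, 2632 and 2782 in 3C, and 4417 and 5545 in 5C. The 10 surface and activator genes summed to 582 and 592 CPM in DMSO, 621 and 622 in 3C, and 635 and 653 in 5C, and 1 of them was called in 5C and 0 in 3C, although 6 of 10 in each comparison had an adjusted p below 0.05, as did 28.7% of all genes in 5C and 24.5% in 3C.

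**Figure D1:**
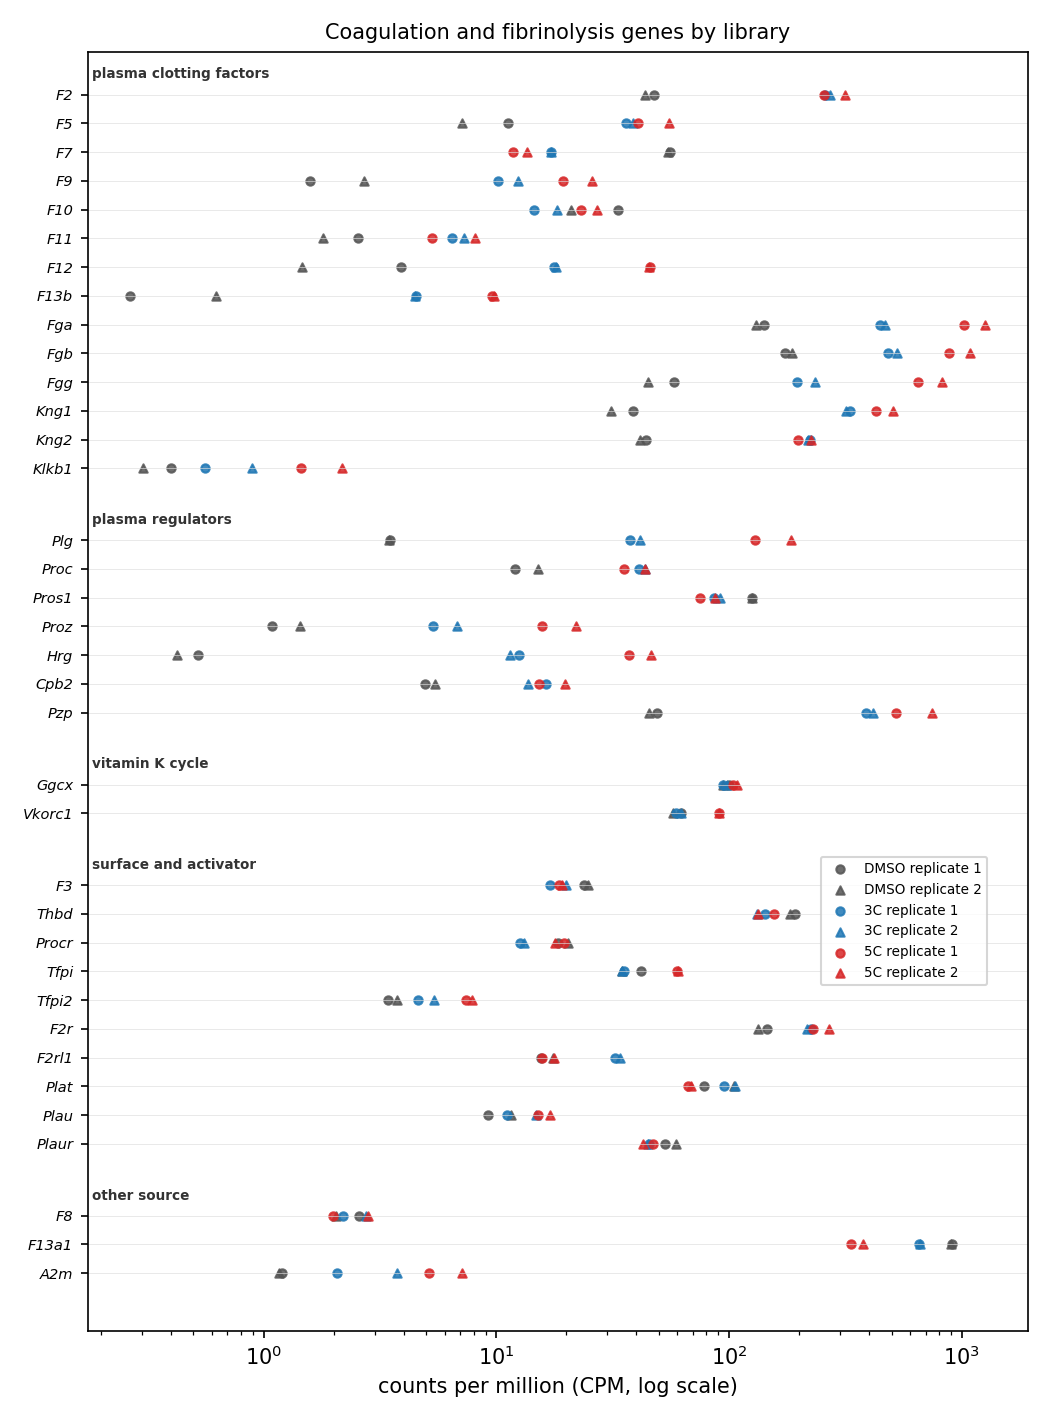
CPM of the 36 genes in each of the 6 libraries, on a log axis, with colour for the group and shape for the replicate, sorted by role. In most plasma factors the DMSO libraries lie to the left of both cocktails, in F7 and F13a1 they lie to the right, and in the surface and activator genes the groups lie close together.

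Fibrinogen, the precursor of fibrin, is built from 3 chains encoded by Fga, Fgb and Fgg, which stand together on chromosome 3 with gaps of 11019 bases between Fgg and Fga and 6513 bases between Fga and Fgb. Fga was at 142 and 130.0 CPM in DMSO, 446 and 470.0 in 3C, and 1019 and 1256 in 5C. Fgb was at 174 and 187 CPM in DMSO, 484 and 529 in 3C, and 879 and 1082 in 5C. Fgg was at 58.1 and 44.8 CPM in DMSO, 197 and 235 in 3C, and 651 and 826 in 5C. All 3 chains were lowest in DMSO and highest in 5C, with no overlap between the groups. In 5C against DMSO, Fgg rose by 3.87 on the log2 scale (SE 0.188, adjusted p = 1.27e-05), Fga by 3.09 (SE 0.114, adjusted p = 3.73e-07) and Fgb by 2.46 (SE 0.116, adjusted p = 1.19e-06). In 3C the values were 2.04 for Fgg, 1.72 for Fga and 1.46 for Fgb, all called.

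The fold changes of the chains differed in size. Measured as deposited FPKM, a level scaled to depth and gene length, the ratio of Fgg to Fgb within a library was 0.745 and 0.532 in DMSO, 0.904 and 0.989 in 3C, and 1.65 and 1.70 in 5C. The ratio of Fga to Fgb was 1.47 and 1.25 in DMSO, 1.66 and 1.61 in 3C, and 2.09 and 2.10 in 5C. Both ratios rose without overlap in the order DMSO, 3C, 5C, and with 2 libraries a group they are given as a description.

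**Figure D2:**
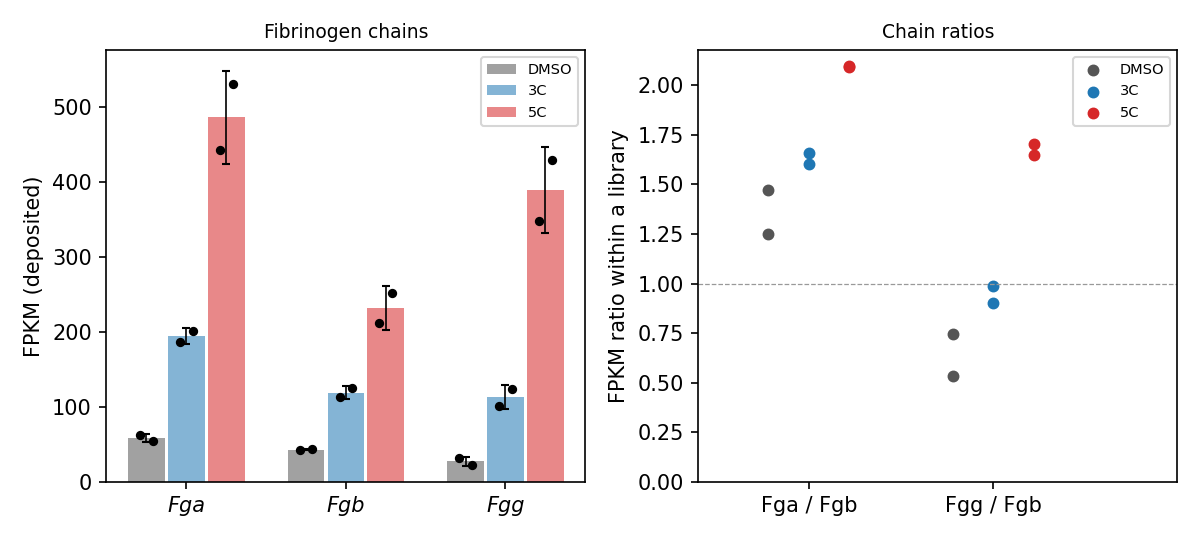
Left, FPKM of the 3 fibrinogen chains, with bars for the group mean, error bars for the SD of 2 libraries and points for the libraries. Right, the ratios of Fga and Fgg to Fgb within each library, where Fgg passes from below Fgb in DMSO to 1.65 and 1.70 times Fgb in 5C and the dashed line marks 1.

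Promoter sequence is shown for the 3 chains because they moved together from one locus. The 250 bases before the RefSeq start (RefSeq, GRCm38.p6 table) were each matched to a single place in GRCm39, at chr3:82933210-82933459 on the plus strand for Fga, chr3:82957171-82957420 on the minus strand for Fgb and chr3:82914781-82915030 on the plus strand for Fgg. Capitals mark matches on either strand to the HNF1 motif GTTAATNAT, the C/EBP motif TTGCNNAA, the AP-1 motif TGACTCA and the IL-6 response motif CTGGGAA.
Fga: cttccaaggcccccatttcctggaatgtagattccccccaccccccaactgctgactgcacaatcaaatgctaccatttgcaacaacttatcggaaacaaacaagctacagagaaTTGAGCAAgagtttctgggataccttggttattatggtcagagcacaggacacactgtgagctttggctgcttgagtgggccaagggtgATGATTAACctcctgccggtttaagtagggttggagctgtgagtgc
Fgb: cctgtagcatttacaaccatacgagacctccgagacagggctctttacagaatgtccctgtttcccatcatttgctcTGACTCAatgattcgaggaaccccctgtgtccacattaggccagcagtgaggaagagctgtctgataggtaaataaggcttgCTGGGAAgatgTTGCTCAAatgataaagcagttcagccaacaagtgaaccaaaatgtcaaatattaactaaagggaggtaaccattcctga
Fgg: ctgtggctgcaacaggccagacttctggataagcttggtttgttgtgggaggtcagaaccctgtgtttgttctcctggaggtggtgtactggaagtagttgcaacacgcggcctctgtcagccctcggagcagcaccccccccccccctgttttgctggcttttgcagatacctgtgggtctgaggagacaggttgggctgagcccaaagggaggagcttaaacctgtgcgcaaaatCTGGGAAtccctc

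Fga held the HNF1 and C/EBP motifs, Fgb the AP-1, IL-6 response and C/EBP motifs, and Fgg the IL-6 response motif alone. GENCODE starts Fga farther upstream than RefSeq, so the HNF1 match of Fga lies inside the GENCODE gene. Among 27025 promoters of this length, 0.781% held the HNF1 motif, 9.55% the C/EBP motif, 4.43% the AP-1 motif and 9.08% the IL-6 response motif. Of the 28 genes described here with a promoter entry, 3 held the HNF1 motif (F13b, Fga and Pzp), 10 the C/EBP motif, 5 the AP-1 motif and 4 the IL-6 response motif. The motifs TGTTTAC (FOXA), TGACG and TGACGTCA (both cAMP response, the first contained in the second) were in 3, 4 and 1 of the 28, against 3.09%, 17.9% and 1.62% of all, and CAAAGTCCA (HNF4), TTGCGCAA (C/EBP, contained in TTGCNNAA) and CACGTG (E-box) were in 0, against 0.381%, 0.17% and 6.05%. A match is a description of the letters and not a binding site. A2m, F2rl1, Kng1, Plat, Plau, Plg, Proc and Thbd had no entry.

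Of the vitamin K dependent clotting proteases, prothrombin (F2) and factor IX (F9) rose with both cocktails. F2 was at 47.7 and 43.5 CPM in DMSO, 259 and 271 in 3C, and 256 and 316 in 5C, so both cocktails lay above DMSO and overlapped each other. Its log2 fold change against DMSO was 2.67 (SE 0.112, adjusted p = 5.99e-07) in 5C and 2.51 (SE 0.111, adjusted p = 1.76e-06) in 3C. F9 was at 1.58 and 2.70 CPM in DMSO, 10.2 and 12.3 in 3C, and 19.4 and 25.7 in 5C, and the 3 groups did not overlap. It rose by 3.42 (SE 0.281) in 5C and by 2.36 (SE 0.273) in 3C on the log2 scale.

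Factor VII (F7), which starts the extrinsic pathway with tissue factor, was the only liver-made gene called lower. It was at 56.0 and 54.5 CPM in DMSO, 17.1 and 17.2 in 3C, and 11.8 and 13.5 in 5C, with DMSO highest and no overlap. It fell by 2.11 on the log2 scale in 5C (SE 0.107, adjusted p = 1.54e-06) and by 1.72 in 3C (SE 0.105, adjusted p = 7.78e-06). Of the 10 macrophage markers, 9 were called lower in each comparison, with a median log2 fold change of -2.05 in 5C and -1.58 in 3C. Their part in the F7 result was not tested. Factor X (F10), the next protease of the pathway, was at 33.4 and 20.9 CPM in DMSO, 14.6 and 18.2 in 3C, and 23.2 and 27.1 in 5C. The 5C values lay between those of DMSO, and F10 was not called (log2 fold change -0.09 in 5C, adjusted p = 0.822, and -0.76 in 3C, adjusted p = 0.0466). Without DMSO replicate 2 it was called lower in 3C, at -1.04.

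F7, F10 and Proz lie side by side on chromosome 8, with gaps of 1.48 kb between F7 and F10 and 3.9 kb between F10 and Proz. Proz encodes protein Z, the cofactor of a serpin that inhibits factor Xa. It was at 1.09 and 1.44 CPM in DMSO, 5.33 and 6.79 in 3C, and 15.8 and 21.9 in 5C, rising without overlap. Its log2 fold change was 3.92 (SE 0.259, adjusted p = 7.07e-06) in 5C and 2.23 (SE 0.249, adjusted p = 0.000206) in 3C. Neighbours of one locus thus differed in direction, and the FPKM ratio of Proz to F7 was 0.0107 and 0.0161 in DMSO, 0.175 and 0.220 in 3C, and 0.740 and 0.910 in 5C.

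**Figure D3:**
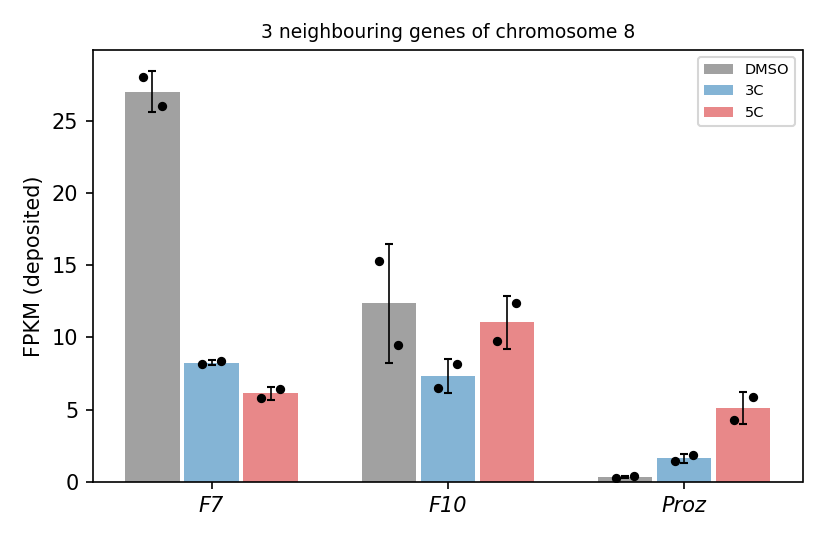
FPKM of F7, F10 and Proz, with bars for the group mean, error bars for the SD of 2 libraries and points for the libraries. F7 is highest in DMSO, Proz is highest in 5C and F10 overlaps between DMSO and 5C.

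The promoters of F7 (chr8:13075784-13076033, plus strand) and F10 (chr8:13087058-13087307, plus strand) are shown to set beside those of the fibrinogen chains. Neither window of 250 bases held any of the motifs searched, and the Proz window, which lies inside the gene in GENCODE, held none either. Only the letters given above were searched, so a site with other letters would be missed.
F7: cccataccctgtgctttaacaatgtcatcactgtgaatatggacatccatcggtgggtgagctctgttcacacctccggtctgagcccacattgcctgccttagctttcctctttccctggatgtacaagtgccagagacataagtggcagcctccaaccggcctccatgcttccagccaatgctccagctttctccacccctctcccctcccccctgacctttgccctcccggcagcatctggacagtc
F10: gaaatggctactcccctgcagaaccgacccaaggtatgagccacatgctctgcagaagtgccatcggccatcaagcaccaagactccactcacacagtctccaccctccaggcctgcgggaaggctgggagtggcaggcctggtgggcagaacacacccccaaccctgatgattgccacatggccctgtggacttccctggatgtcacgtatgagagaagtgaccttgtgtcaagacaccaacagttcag

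The contact system and factor V followed the direction of F2. Factor XII (F12), which starts contact activation, was at 3.90 and 1.46 CPM in DMSO, 17.7 and 18.0 in 3C, and 45.6 and 45.3 in 5C. It rose by 4.10 (SE 0.434, adjusted p = 0.00178) in 5C and by 2.71 (SE 0.417, adjusted p = 0.00835) in 3C on the log2 scale. The DMSO libraries differed from each other more than the 3C or 5C libraries did, and without 3C replicate 1 or without 3C replicate 2 the call in 3C was lost (adjusted p = 0.0706 and 0.0740).

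Factor XI (F11), the protease activated by factor XII, was at 2.55 and 1.81 CPM in DMSO, 6.45 and 7.24 in 3C, and 5.31 and 8.10 in 5C, above DMSO in both cocktails (log2 fold change 1.65, SE 0.276, in 5C and 1.62, SE 0.276, in 3C). Factor V (F5), the cofactor of factor Xa, was at 11.2 and 7.12 CPM in DMSO, 36.1 and 38.7 in 3C, and 40.7 and 54.96 in 5C (2.40, SE 0.238, and 2.00, SE 0.236). All 4 cocktail libraries lay above both DMSO libraries in each of these genes. The kininogens, which carry factor XI and prekallikrein and release bradykinin, are encoded in mice by the paralogs Kng1 and Kng2, 28.4 kb apart on chromosome 16.

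Kng1 was at 38.6 and 31.0 CPM in DMSO, 331 and 319 in 3C, and 426 and 506 in 5C. Kng2 was at 44.0 and 41.3 CPM in DMSO, 223 and 218 in 3C, and 197 and 224 in 5C. Both rose with both cocktails (Kng1 by 3.77 and 3.19 and Kng2 by 2.32 and 2.34 on the log2 scale), Kng1 separated 3C from 5C and Kng2 did not. These paralogs share 15.3% and 17.9% of their 50-base words, so counts could be split between them and their values are uncertain.

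Prekallikrein (Klkb1) was at 0.402 and 0.303 CPM in DMSO, 0.559 and 0.894 in 3C, and 1.45 and 2.18 in 5C. It rose in 5C (log2 fold change 2.38, SE 0.476, adjusted p = 0.00509) and was not called in 3C (1.01, adjusted p = 0.169). Its value is uncertain, since 42.8% of its 50-base words occur in the overlapping annotations Gm45753 and Gm57899. Factor XIII B (F13b), the plasma carrier of the cross-linking enzyme, was at 0.268 and 0.622 CPM in DMSO, 4.51 and 4.49 in 3C, and 9.58 and 9.75 in 5C, from counts of 18 and 41 in DMSO. It rose by 4.45 (SE 0.358) in 5C and by 3.30 (SE 0.348) in 3C.

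The largest differences against DMSO were in regulators. Histidine-rich glycoprotein (Hrg), a plasma protein that binds plasminogen and heparin, was at 0.521 and 0.425 CPM in DMSO, 12.5 and 11.4 in 3C, and 37.4 and 46.0 in 5C, counted 35 and 28 times in the DMSO libraries. It rose by 6.48 (SE 0.191, adjusted p = 2.1e-07) in 5C and by 4.62 (SE 0.185, adjusted p = 1.48e-06) in 3C on the log2 scale, the largest of the 36 in both. Plasminogen (Plg), the precursor of plasmin, was at 3.50 and 3.46 CPM in DMSO, 37.4 and 41.4 in 3C, and 129 and 185 in 5C. It rose by 5.52 (SE 0.213, adjusted p = 4.19e-06) in 5C and by 3.47 (SE 0.201, adjusted p = 3.59e-05) in 3C. In both genes the 3 groups were apart, DMSO lowest and 5C highest.

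The promoters of Hrg (chr16:22769572-22769821, plus strand) and F13b (chr1:139429195-139429444, plus strand) are shown because, of the liver-made genes called in all comparisons, these had the largest change among those with an entry. Capitals mark the C/EBP motif TTGCNNAA in Hrg and the reverse of the HNF1 motif GTTAATNAT in F13b.
Hrg: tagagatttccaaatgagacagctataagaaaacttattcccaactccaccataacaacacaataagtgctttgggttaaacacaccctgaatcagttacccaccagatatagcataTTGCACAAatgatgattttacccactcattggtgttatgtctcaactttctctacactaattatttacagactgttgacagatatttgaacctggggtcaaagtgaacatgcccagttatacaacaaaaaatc
F13b: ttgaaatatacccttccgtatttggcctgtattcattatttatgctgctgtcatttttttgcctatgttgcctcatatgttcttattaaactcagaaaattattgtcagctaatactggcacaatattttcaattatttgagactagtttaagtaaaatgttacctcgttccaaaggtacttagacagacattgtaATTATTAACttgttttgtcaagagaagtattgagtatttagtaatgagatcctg

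Protein C (Proc), the protease that inactivates factors Va and VIIIa, was at 12.02 and 15.1 CPM in DMSO, 41.0 and 43.4 in 3C, and 35.5 and 43.4 in 5C. The cocktails lay above DMSO and overlapped each other (log2 fold change 1.56, SE 0.147, in 5C and 1.604, SE 0.147, in 3C). Its cofactor protein S (Pros1) did not follow. Pros1 was at 126 CPM in both DMSO libraries, 86.3 and 91.4 in 3C, and 75.2 and 86.9 in 5C, with an adjusted p of 0.000641 in 5C and 0.00175 in 3C but changes of -0.62 and -0.54, short of the limit of 1.

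Carboxypeptidase B2 (Cpb2), which protects fibrin from plasmin, was at 4.93 and 5.48 CPM in DMSO, 16.4 and 13.7 in 3C, and 15.2 and 19.8 in 5C. It rose by 1.77 (SE 0.178) and 1.497 (SE 0.177) in 5C and 3C. Pzp, a broad protease inhibitor of the macroglobulin family that the mouse liver secretes, was at 49.0 and 45.4 CPM in DMSO, 386 and 416 in 3C, and 523 and 745 in 5C. It rose by 3.77 (SE 0.182) and 3.05 (SE 0.177), without overlap between any groups.

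**Figure D4:**
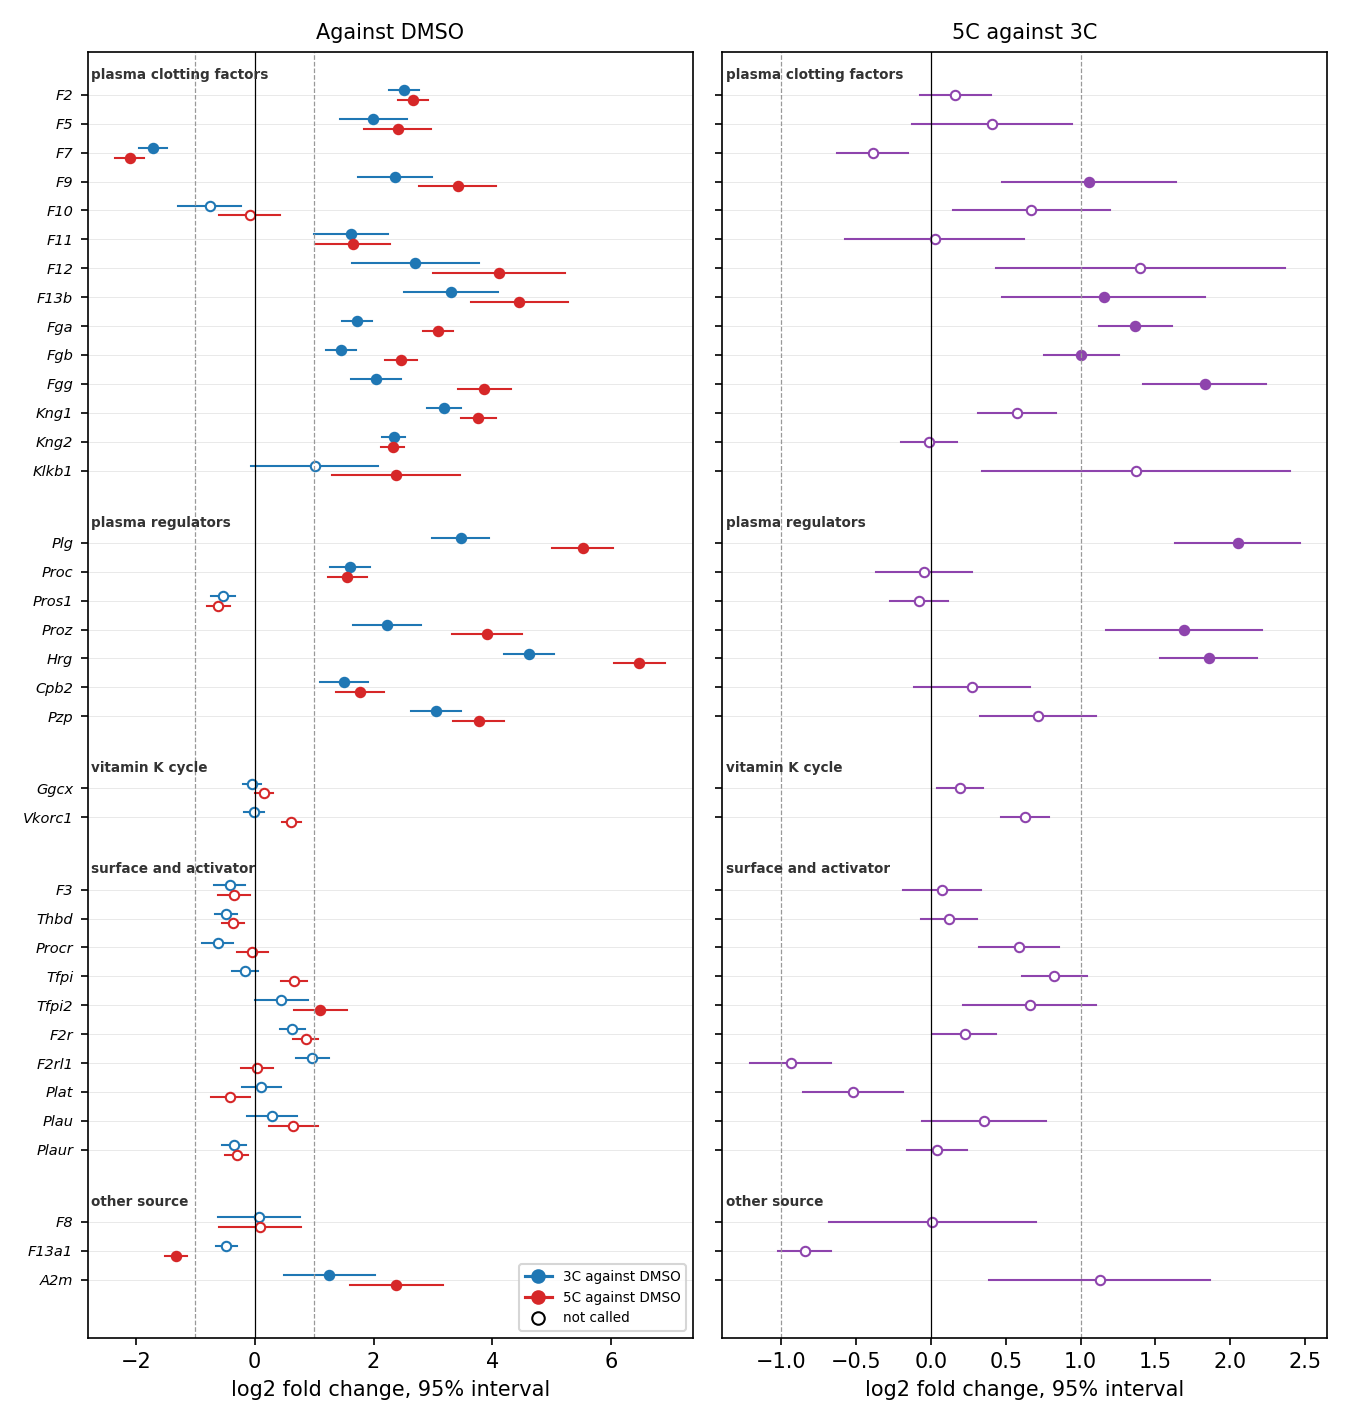
Log2 fold change of the 36 genes with its 95% interval, left for 3C and 5C against DMSO and right for 5C against 3C, with filled points for called genes and dashed lines at a change of 1 in either direction. Hrg and Plg lie farthest to the right against DMSO, F7 farthest to the left, and 8 genes are filled on the right.

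The second question was what Salidroside and Forskolin added to 3C, read from 5C against 3C. Here 8 of the 36 genes were called, all higher and all liver-made, against a background of 3.01% of the genes tested, or 2.16% higher and 0.852% lower. They were Plg (log2 fold change 2.05, SE 0.174, adjusted p = 0.000896), Hrg (1.86, SE 0.142, adjusted p = 0.000231), Fgg (1.83, SE 0.172, adjusted p = 0.00137), Proz (1.69, SE 0.23, adjusted p = 0.00221), Fga (1.36, SE 0.107, adjusted p = 0.000254), F13b (1.15, SE 0.299, adjusted p = 0.0362), F9 (1.06, SE 0.251, adjusted p = 0.0293) and Fgb (1.00, SE 0.111, adjusted p = 0.000881). These are the precursor of plasmin and a protein that binds it, the 3 fibrinogen chains, and 3 others of the cascade. Of the hepatocyte markers 0 of 8 were called by edgeR in this comparison, with 6 higher, 2 at an adjusted p below 0.05 (Ttr higher and Hnf4a lower) and the largest difference in Asgr1 (2.94, adjusted p = 0.0542). Called higher here were 4 of 6 mesothelial and 4 of 8 endothelial markers, and 1 of 10 macrophage markers was called lower. Their part in the 8 calls was not tested.

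The calls of F13b, F9 and Fgb were lost when single libraries were left out. Without 1 of the libraries the adjusted p of F13b was 0.177 (3C replicate 1), 0.169 (3C replicate 2), 0.136 (5C replicate 1) and 0.170 (5C replicate 2). F9 had 0.208 without 3C replicate 1, 0.104 without 3C replicate 2 and 0.185 without 5C replicate 2. Fgb fell just under the limit of 1, at 0.94 without 3C replicate 1, 0.82 without 5C replicate 2 and 0.9994 without DMSO replicate 2. The number of the 36 called was 5 without 3C replicate 1.

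F12 (1.40, 95% interval 0.43 to 2.37, adjusted p = 0.0848), Klkb1 (1.37, interval 0.34 to 2.40, adjusted p = 0.0893) and A2m (1.13, interval 0.39 to 1.87, adjusted p = 0.0559) had changes over 1 that were not called. F12 was called without DMSO replicate 1 or without DMSO replicate 2 (adjusted p = 0.000102 and 8.8e-05), under DESeq2 (0.0445), with only the 3C and 5C libraries fitted (0.000154), under limma on log2(FPKM + 1) (0.0165) and with counts divided by 4 (0.0126). A2m was called at 1.62 without 3C replicate 2 (adjusted p = 0.0432), under DESeq2 (0.018), with at least 10 counts required in every library (0.0345) and with counts divided by 4 (0.0322). In contrast the intervals of Kng2 (-0.20 to 0.17), Pros1 (-0.28 to 0.11), F2 (-0.07 to 0.40), Proc (-0.37 to 0.28) and Cpb2 (-0.11 to 0.66) lay inside 1 on the log2 scale. F11 (-0.57 to 0.62) and F5 (-0.13 to 0.94) did too, and a change of 1 in either direction lay outside all of these intervals. Kng1 (0.57, adjusted p = 0.0121), Pzp (0.71, adjusted p = 0.0339) and F7 (-0.39, adjusted p = 0.0422) passed the adjusted p but not the size limit.

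Gamma-carboxylation of the vitamin K dependent factors needs Ggcx, the carboxylase, and Vkorc1, the reductase that recycles vitamin K. Ggcx was at 94.0 to 99.8 CPM in DMSO, 94.3 to 97.9 in 3C and 104 to 108 in 5C and was not called. Vkorc1 was at 62.4 and 57.2 CPM in DMSO, 59.2 and 61.9 in 3C, and 90.1 and 90.6 in 5C, with a change of 0.61 (SE 0.0716, adjusted p = 0.000212) in 5C that was below the size limit. Vkorc1 shares 25.3% of its 50-base words with Gm21974 and Prss53, so it is uncertain too. Neither enzyme was called in any of the 3 comparisons.

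Of the 10 surface and activator genes, 1 was called. Tfpi2, a Kunitz-type protease inhibitor deposited in the matrix, was at 3.44 and 3.75 CPM in DMSO, 4.62 and 5.39 in 3C, and 7.38 and 7.88 in 5C, rising by 1.11 (SE 0.198, adjusted p = 0.00281) in 5C and by 0.45 (adjusted p = 0.147, not called) in 3C. Its promoter is shown as the surface gene called, at chr6:3988859-3989108 on the minus strand. It held none of the motifs searched, but only 1 of the 3 promoter entries of Tfpi2 was searched. GENCODE starts the gene farther upstream than this RefSeq start, inside the window shown.
Tfpi2: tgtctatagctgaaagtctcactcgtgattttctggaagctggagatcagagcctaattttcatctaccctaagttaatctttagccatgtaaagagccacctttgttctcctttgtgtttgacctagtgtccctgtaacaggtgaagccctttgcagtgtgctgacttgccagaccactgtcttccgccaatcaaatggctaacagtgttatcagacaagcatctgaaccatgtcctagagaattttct

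Tissue factor (F3), which starts clotting, was at 23.8 and 24.8 CPM in DMSO, 17.1 and 20.0 in 3C, and 18.6 and 19.1 in 5C (-0.42 in 3C, adjusted p = 0.0274, and -0.35 in 5C, adjusted p = 0.0524). Thrombomodulin (Thbd), the receptor that turns thrombin toward protein C, was lower but short of the size limit, at -0.36 in 5C and -0.48 in 3C. The protein C receptor Procr was at -0.63 (adjusted p = 0.00413) in 3C and -0.04 (adjusted p = 0.845) in 5C, with 18.4 and 20.4 CPM in DMSO, 12.6 and 13.1 in 3C, and 19.5 and 17.8 in 5C. Tissue factor pathway inhibitor (Tfpi) was highest in 5C, with 59.9 and 60.1 CPM in 5C against 42.0 and 34.8 in DMSO and 35.5 and 34.6 in 3C. Its change was 0.66 in 5C against DMSO and 0.83 (SE 0.097, adjusted p = 0.0011) in 5C against 3C.

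Of the thrombin receptors, F2r (PAR1) was at 133 to 146 CPM in DMSO, 216 to 225 in 3C and 229 to 269 in 5C, a change of 0.86 in 5C and 0.63 in 3C. The protease receptor F2rl1 (PAR2) was at 15.5 and 17.5 CPM in DMSO, 32.2 and 33.9 in 3C, and 15.7 and 17.7 in 5C, so 3C alone stood apart. Its change of 0.97 (SE 0.12, adjusted p = 0.000377) in 3C was just below the limit, it was called at 1.08 without DMSO replicate 2 and at 1.01 without 3C replicate 1, and 5C lay 0.94 below 3C (adjusted p = 0.00162), called at -1.05 without 5C replicate 2. F2r and F2rl1 are neighbours, 75.6 kb apart on chromosome 13.

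The plasminogen activators and the uPA receptor were not called. The tPA gene Plat was at 77.7 and 105 CPM in DMSO, 94.7 and 107 in 3C, and 66.6 and 68.9 in 5C, the uPA gene Plau at 9.17 to 11.6, 11.2 to 14.9 and 15.1 to 17.1, and the uPA receptor Plaur at 53.3 to 59.2, 45.1 to 45.4 and 42.9 to 47.0. Their changes over the 3 comparisons ran from -0.52 to 0.65. The FPKM ratio of Plg to Plau was 0.324 and 0.254 in DMSO, 2.85 and 2.37 in 3C, and 7.25 and 9.24 in 5C.

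The factor XIII A subunit (F13a1), the catalytic subunit made by macrophages and megakaryocytes, moved against its liver-made partner F13b. It was at 905 and 899 CPM in DMSO, 658 and 663 in 3C, and 335 and 375 in 5C, falling without overlap. It fell by 1.33 on the log2 scale in 5C against DMSO (SE 0.0794, adjusted p = 4.17e-06), was at -0.48 (adjusted p = 0.00187) in 3C, below the size limit, and at -0.84 (adjusted p = 0.000402) in 5C against 3C. Of the 10 macrophage markers, 9 were called lower against DMSO in both cocktails, with the sums given above, and their part in the F13a1 result was not tested.

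**Figure D5:**
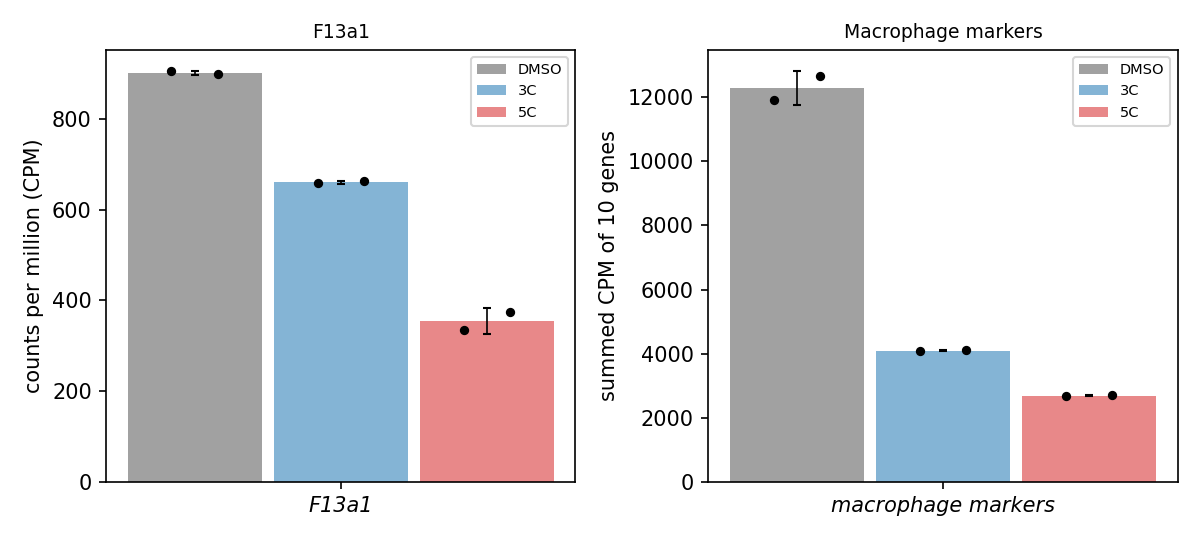
Left, CPM of F13a1, and right, summed CPM of 10 macrophage markers, with bars for the group mean, error bars for the SD of 2 libraries and points for the libraries. Both fall in the order DMSO, 3C, 5C.

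A2m, the alpha-2-macroglobulin gene, was at 1.21 and 1.17 CPM in DMSO, 2.07 and 3.74 in 3C, and 5.13 and 7.11 in 5C. It rose by 2.38 (SE 0.344, adjusted p = 0.000773) in 5C. In 3C it rose by 1.26 (adjusted p = 0.0244), a call that was lost without DMSO replicate 1 (adjusted p = 0.0864), without DMSO replicate 2 (0.0807) and without 3C replicate 2 (0.212). Factor VIII (F8), made mainly by liver sinusoidal endothelium, was at 2.00 to 2.82 CPM over all 6 libraries and was not called, with intervals of -0.61 to 0.78 in 5C and -0.62 to 0.77 in 3C.

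By FPKM, which is per length, F13a1 had the highest mean in DMSO at 208 ± 9.03 (SD, n = 2), before Vkorc1 at 72.7 ± 7.01, Fga at 58.6 ± 5.73 and Thbd at 45.8 ± 3.33. In 3C the order was Fga at 194 ± 10.6, F13a1 at 150 ± 2.81, Kng1 at 139 ± 0.637 and Kng2 at 126 ± 0.041. In 5C it was Fga at 486 ± 62.1, Fgg at 389 ± 57.5, Fgb at 232 ± 29.2 and Kng1 at 202 ± 20.1, with F13a1 in place 9 at 81.0 ± 4.88. Fga and Fgg in 5C, and Fgb and Kng1 there, lay closer than the sum of their SDs. In 16 of the 36 genes the libraries rose without overlap in the order DMSO, 3C, 5C, and in F7 and F13a1 they fell in that order. The share of all genes tested with such an order was not computed, so these counts are only a description.

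Among 20 other genes of the pathway, 18 passed the filter (Serpina5 and F2rl2 did not). In 5C against DMSO 7 were called, 6 higher and 1 lower, where 11.7% of all genes tested were called. In 3C against DMSO 8 were called, 6 higher and 2 lower, where the background was 9.45%. In 5C against 3C 2 were called, both higher, where the background was 3.01%. The plasma serpins rose with both cocktails, among them antithrombin (Serpinc1, 4.89 in 5C and 2.78 in 3C), the protein Z dependent inhibitor Serpina10 (3.21 and 2.03), antiplasmin (Serpinf2, 2.74 and 2.48), heparin cofactor II (Serpind1, 2.62 and 2.64) and C1 inhibitor (Serping1, 1.59 and 1.16). Serpinc1 (2.12, adjusted p = 0.00276) and Serpina10 (1.18, adjusted p = 0.000335) also rose in 5C against 3C. Vwf, the platelet-binding carrier of factor VIII, fell by 2.43 in 5C and by 1.95 in 3C, at 25.03 and 38.4 CPM in DMSO and 4.78 to 9.78 in the cocktail libraries. Most endothelial markers moved the other way from Vwf, with 6 of 8 tested called higher and 1 lower in 5C, and 4 higher and 1 lower in 3C, and their part in the values of Vwf, Thbd and Procr was not tested. Habp2 rose in 3C (1.32) and Fgl2 fell in 3C (-1.07), and both were called there. In 5C these genes moved the same way, at 0.77 and -0.87, short of the size limit. The receptor gene F2rl3 rose in 5C (3.29, SE 0.771) from at most 0.167 CPM in DMSO.

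Of the 36 genes, 14 overlap an exon of an antisense annotation, among them Plg with Slc22a3 and Ggcx with Mat2a. The strand setting of the counting is not given in the sources used here, so reads of such pairs cannot be told apart. Without overlap between groups were 32 of the 36 genes in 5C against DMSO, where 63.1% of all genes tested had none, 30 in 3C against DMSO (61.3%) and 26 in 5C against 3C (58%).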

How the data were processed

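Per the labels, RNA was extracted from the cultures and made into libraries with a NEBNext Ultra kit. The authors deposited raw counts per gene and FPKM values for the 6 libraries, in a table each. The submitters' processing notes name featureCounts, Subread, DESeq2 and GRCm39, and the aligner, strand setting and annotation release are not given in the sources used here. In the deposited counts 4 is listed 4816 times, beside 3121 for 3 and 2303 for 5, an excess whose origin was not tested. Genes were filtered with filterByExpr, scaled by TMM and tested with edgeR 4.0.16 (quasi-likelihood, robust, all 6 libraries in 1 model, R 4.3.3), called at adjusted p below 0.05 and a log2 fold change over 1 in size. SEs are the fold change divided by the root of F. At a depth of 65916573 to 69245895 counts a library, the spread between 2 libraries, not depth, limits the precision of most genes here. The 36 members and the lists were chosen with earlier results of these data known. All 36 are named, with every library's value for those called. The promoters of Hrg, Plg, F13b and Tfpi2 were picked by size of change (Plg has no entry), and those of Fga, Fgb, Fgg, F7, F10 and Proz were added after the values were seen. Shared words and antisense overlaps were counted in GENCODE vM39, and promoters were matched to GRCm39. Only the edgeR test was run on simulated data first, and its calls were checked in 5C against DMSO alone. DESeq2 1.42.0, limma 3.58.1, other filters and scalings, the replicate block, each library left out, and counts divided by 4 (added after seeing the data) were tried.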

Additional observations from a re-analysis of the deposited data

How the results depend on the processing

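Of the 49 called changes of the 36 genes, 40 stayed called under all 16 alternatives tried, none of the 49 changed sign, and 28 of 784 alternative values were no longer called. The alternative with no size limit reuses the main fit, so it could not lose a call or change a sign. The cause of these losses was not tested, except that limma on log2(FPKM + 1) shrinks the change of genes of low FPKM. Under limma on log2(FPKM + 1), 1231 genes were called in 5C against DMSO, 958 in 3C against DMSO and 261 in 5C against 3C. Under limma on log2(FPKM + 0.1), 5 of the 36 genes, and 5 liver-made genes higher, were called in 5C against 3C. With no limit on the size of the change, 5485, 4689 and 2423 genes were called in the 3 comparisons, as were 6, 6 and 3 surface and activator genes, and 16 of the 36 in 5C against 3C.

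With single libraries left out, the genes called ranged from 1923 to 2191 in 5C against DMSO, from 1535 to 1784 in 3C against DMSO and from 381 to 642 in 5C against 3C, the lowest of these without 5C replicate 2. The 36 gave 22 in 5C against DMSO each time, 17 to 20 in 3C against DMSO and 5 to 9 in 5C against 3C. Liver-made genes called higher numbered 18, 16 to 17 and 5 to 9, and surface and activator genes called 1, 0 to 1 and 0 to 1. A group left with 1 library was assumed to vary like the others.

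Across the 19135 genes tested, deviations of same-numbered libraries correlated at -0.049 (DMSO and 3C), 0.021 (DMSO and 5C) and 0.059 (3C and 5C). All genes had equal weight, so a pairing that shows in only some genes could be missed. The fit with the replicate block called 2125, 1737 and 536 genes in the 3 comparisons, and 22, 19 and 8 of the 36. Under the replicate block 18, 17 and 7 liver-made genes were called higher and 1, 0 and 0 surface and activator genes. In it Fgb in 5C against 3C was at 0.9978, just under the limit, and A2m was called there at 1.15.

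Signs changed only for uncalled values near 0. In 5C against DMSO, leaving out single libraries moved the log2 fold change of F10 from -0.38 to 0.28, that of Procr from -0.12 to 0.048, that of F2rl1 from -0.073 to 0.14 and that of F8 from -0.20 to 0.32. In 3C against DMSO, it moved Vkorc1 from -0.058 to 0.037, Plat from -0.10 to 0.36 and F8 from -0.097 to 0.23. In 5C against 3C, it moved F2 from -0.017 to 0.31, F11 from -0.34 to 0.30, Kng2 from -0.13 to 0.084, Proc from -0.22 to 0.10, Pros1 from -0.21 to 0.029, F3 from -0.036 to 0.20, Plaur from -0.016 to 0.085 and F8 from -0.28 to 0.24. Under limma with pseudocounts of 1 and 0.1, F8 was at -0.041 and -0.13 in 5C against DMSO, -0.021 and -0.061 in 3C against DMSO and -0.020 and -0.074 in 5C against 3C. There F11 was at -0.076 and -0.104 and Plaur at -0.000802 and -0.000888 in 5C against 3C.

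With 2 libraries a group, moderate changes such as those of F13b and F9 between the cocktails could not be settled.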

Other observations

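The plasminogen receptors on the cell surface were not called in any comparison by edgeR's quasi-likelihood test. Anxa2 and S100a10, the subunits of the annexin A2 complex that binds plasminogen, had changes of -0.14 and -0.14 in 5C against DMSO and -0.08 and -0.31 in 3C, and Plgrkt was at 20.8 to 23.9 CPM in all 6 libraries.

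Lman1 and Mcfd2 form the receptor that carries factors V and VIII out of the endoplasmic reticulum. Lman1 was at 274 and 270.3 CPM in DMSO, 216 and 228 in 3C, and 289 and 306 in 5C, and Mcfd2 at 257 and 291, 251 and 261, and 292 and 314. Neither was called in any comparison, and their changes against DMSO ran from -0.33 to 0.16.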
